A study of Mus musculus with 25 samples.

Results

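The mitosis and spindle genes described here are 38 mouse genes that act between the entry into mitosis and the separation of the daughter cells. They were chosen by name, with earlier results of these data known. All 38 were found by their symbol in the deposited table, among 24221 genes with a usable symbol and at least 1 value above 0. The table holds chromatin immunoprecipitation sequencing (ChIP-seq) values per gene for 4 histone marks: H3K4me3, H3K27ac, H3K4me1 and H3K27me3. The cells are tdMEFs, mouse fibroblasts by name, on the way to chemically induced neural stem-like cells.

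At D0 the tdMEFs had been kept in a medium with fetal bovine serum at 20% O2. At D4 and D8 they had spent 4 and 8 days at 5% O2 in M9, a medium based on Neural basal and DMEM/F12 with N2, B27 without vitamin A, BSA and nonessential amino acids. M9 also held the compounds CHIR99021, LDN193189, A83-01, Hh-Ag1.5, retinoic acid, SMER28, RG108 and Parnate, together with the growth factor bFGF. Medium, compounds and oxygen therefore changed together, and their effects cannot be told apart. The labels give no genetic background, sex, age or number of cultures for the cells. The sample labels place tdMEFs at D0, while the study's design line writes ciNSLC beside day 0, and the sample labels were followed. Each mark has 1 library at each stage, so no difference below has a replicate check and no p-value is given.

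Mitosis starts when cyclin-dependent kinase 1 with its B and A cyclins becomes active. Chromosomes then attach through kinetochores to a spindle of microtubules that motor proteins build, a checkpoint holds the cell until every kinetochore is attached, and the anaphase-promoting complex then releases the sister chromatids. Most genes of this programme are silent in resting cells and are transcribed late in the cell cycle. Their promoters are known for 2 short elements near the start, a CHR (cell cycle genes homology region), read by the repressive DREAM complex and by the activating MYB and FOXM1 complexes, and CCAAT boxes bound by the factor NF-Y. H3K4me3 marks the promoters of genes that are active or ready for transcription. H3K27ac marks active promoters and enhancers, H3K4me1 marks enhancers and promoter flanks, and H3K27me3 is laid down by the Polycomb complex at silent genes.

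Promoter sequences are shown for 6 members, because these elements are what the promoters of the set share. Ccnb2, Bub1, Top2a and Cenpf are the members with an entry whose H3K4me3 was lowest at D8 against D0, Kif11 is the member with the smallest difference, and Cdk1 is the central kinase. Each line gives 250 bases before to 50 bases after the annotated start, 5′ to 3′ in the direction of the gene, from RefSeq on GRCm38.p6. Capitals mark the CHR (TTTGAA, or TTCAAA where it lies on the other strand), its variant TTCGAA and the CCAAT box (CCAAT, or ATTGG on the other strand), and the annotated start is base 251.
Ccnb2: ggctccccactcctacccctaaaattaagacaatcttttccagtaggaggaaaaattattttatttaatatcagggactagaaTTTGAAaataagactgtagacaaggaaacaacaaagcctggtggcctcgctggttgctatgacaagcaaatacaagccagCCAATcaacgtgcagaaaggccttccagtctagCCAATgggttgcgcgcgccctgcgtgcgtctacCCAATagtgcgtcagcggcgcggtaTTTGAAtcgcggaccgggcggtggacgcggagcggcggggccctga
Bub1: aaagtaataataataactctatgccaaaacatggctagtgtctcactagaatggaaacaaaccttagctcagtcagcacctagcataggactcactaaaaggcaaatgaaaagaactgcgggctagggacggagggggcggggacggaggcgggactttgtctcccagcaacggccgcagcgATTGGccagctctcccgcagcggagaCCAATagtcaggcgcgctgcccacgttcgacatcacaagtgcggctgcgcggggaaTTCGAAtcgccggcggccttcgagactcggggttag
Top2a: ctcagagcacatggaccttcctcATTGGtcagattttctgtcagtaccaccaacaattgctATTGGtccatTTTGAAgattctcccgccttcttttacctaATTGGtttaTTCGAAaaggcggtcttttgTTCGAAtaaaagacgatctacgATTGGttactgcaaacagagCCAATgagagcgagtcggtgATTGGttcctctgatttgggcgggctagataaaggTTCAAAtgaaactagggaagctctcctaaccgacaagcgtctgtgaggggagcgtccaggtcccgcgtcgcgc
Cenpf: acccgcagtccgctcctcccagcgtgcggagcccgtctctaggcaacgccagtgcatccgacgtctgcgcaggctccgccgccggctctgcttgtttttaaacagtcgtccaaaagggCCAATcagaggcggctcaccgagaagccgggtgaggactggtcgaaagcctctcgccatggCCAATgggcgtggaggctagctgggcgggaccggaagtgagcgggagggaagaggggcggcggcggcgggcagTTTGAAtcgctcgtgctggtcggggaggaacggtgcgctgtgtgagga
Cdk1: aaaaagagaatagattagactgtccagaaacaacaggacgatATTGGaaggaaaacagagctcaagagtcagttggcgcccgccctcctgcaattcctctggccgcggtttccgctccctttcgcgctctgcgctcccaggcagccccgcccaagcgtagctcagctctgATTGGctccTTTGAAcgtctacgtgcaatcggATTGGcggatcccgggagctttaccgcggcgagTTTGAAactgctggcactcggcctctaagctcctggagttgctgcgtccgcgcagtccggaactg
Kif11: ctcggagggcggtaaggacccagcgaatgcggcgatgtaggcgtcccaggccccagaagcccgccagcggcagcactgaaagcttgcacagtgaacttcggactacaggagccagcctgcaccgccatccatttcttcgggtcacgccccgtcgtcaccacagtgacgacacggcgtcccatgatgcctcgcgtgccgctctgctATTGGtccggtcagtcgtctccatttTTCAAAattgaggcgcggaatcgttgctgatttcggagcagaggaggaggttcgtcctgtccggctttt

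The windows lie at Ccnb2 chr9:70421505-70421804 on the minus strand, Bub1 chr2:127831810-127832109 on the minus strand, Top2a chr11:99024140-99024439 on the minus strand, Cenpf chr1:189688037-189688336 on the minus strand, Cdk1 chr10:69352863-69353162 on the minus strand and Kif11 chr19:37376132-37376431 on the plus strand. An entry was found for 32 of the 38 members, those not matched being Aurkb, Kif20a, Incenp, Ccna2, Cdc25c and Tpx2. In the windows shown, Ccnb2 has CCAAT boxes ahead of a CHR that begins at position 5, with the annotated start counted as the first position. Cenpf carries the same order with a CHR that begins at position 3. Top2a has the most CCAAT boxes of the 6.

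The CHR letters TTTGAA were present on either strand in 22 of the 32 windows, 68.8%, against 17.6% of 17210 mouse genes with a window and 13.2% of the 10037 of them whose H3K4me3 could be compared between D0 and D8. The variant TTCGAA, which reads the same on both strands, was present in 3 windows (9.38%, against 2.04% of all), and either form in 23. The CCAAT letters were present in 24 windows, 75% against 41.9% of all, and 16 windows held at least 2 of them (50% against 14.1%). Either form of the CHR together with a CCAAT box was found in 20 windows, 62.5% against 7.91%. The E2F core GCGGGAA was present in 1 window, that of Cenph (3.13% against 6.89%). Matches were counted on both strands wherever they lay, and overlaps between different motifs were not removed.

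The matches were not spread evenly over the window. In 22 of the 32 members a CHR or its variant began between 60 bases before and 50 bases after the annotated start, which was so in 5.54% of all genes with a window; these limits were chosen after the positions were seen. The windows held a median of 24 CpG dinucleotides in the members, 23 in the genes with comparable H3K4me3 and 15 in all genes. A match is a description of letters and does not show that a factor is bound.

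**Figure D1:**
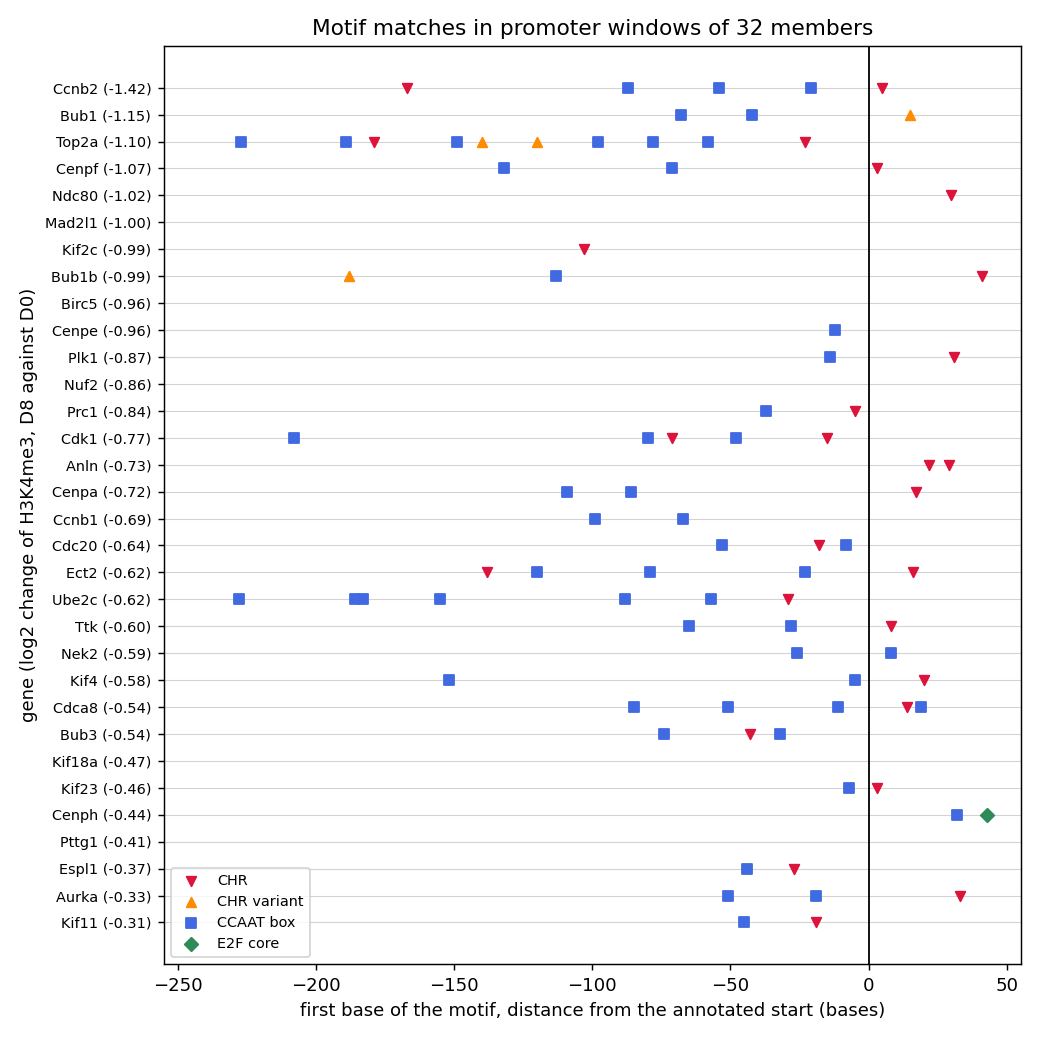
Positions of motif matches in the promoter windows of the 32 members with an entry, ordered from the lowest to the highest log2 change of H3K4me3 between D0 and D8 (in brackets). The x axis is the position in bases relative to the annotated start, which is itself counted as the first position. Red and orange triangles (CHR and its variant) crowd around the start, in 22 of the 32 rows, with blue squares (CCAAT boxes) mostly ahead of it.

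Values are RPM, the reads assigned to a gene scaled to the size of the library, as deposited, and the sources used here do not give the stretch counted for each gene. A gene's level is therefore followed between stages, and levels of different genes are not per length. In these bulk libraries fewer cells that carry a mark and less of the mark in each cell cannot be told apart. The libraries differed in depth and enrichment. The H3K4me3 libraries held 12627843, 2773333 and 34856379 reads at D0, D4 and D8, with 18.8%, 28.5% and 53.9% of them in genes, and the median gene stood at 3.48, 5.41 and 11.1 RPM. The libraries of the other marks ranged from 1582817 reads (H3K27ac at D0) to 34042291 (H3K4me1 at D4). Because of these shifts the main scale is the log2 change after quantile normalization, which gives the 3 libraries of a mark the same distribution over all genes, with a pseudocount of 1.44 RPM for H3K4me3. A gene was compared when the larger of its deposited values reached the median of the mark (5.41 RPM for H3K4me3), and a change of at least 2-fold on this scale is called lower or higher.

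Markers of fibroblasts were strong throughout, with a summed H3K4me3 over 10 genes of 403, 527 and 752 RPM and none at 0, and Col1a1, a fibroblast collagen, stood at 45.7, 48.0 and 82.9 RPM. The sum over 8 neural stem cell markers was 20.9, 48.2 and 124 RPM, and the value of Sox2, a neural stem cell factor, was 4.67, 3.61 and 16.0 RPM. These and the following sums are deposited RPM, in which the median gene also rose, from 3.48 at D0 to 11.1 at D8. On the main scale Sox2 had a log2 change of −0.04 from D0 to D8. The median over the 7 neural stem cell markers compared was 0.99. Sums over 5 markers each were 8.08, 9.01 and 5.99 RPM for macrophages, 10.8, 12.6 and 21.9 RPM for endothelium and 7.76, 10.1 and 22.6 RPM for epithelium, in which 1 macrophage and 1 endothelial marker were at 0 at D4 and no marker at D0 or D8. The D0 libraries also stood apart from the later ones in their sex chromosomes. Xist, the RNA that coats an inactive X chromosome, had 1.03, 41.1 and 47.9 RPM of H3K4me3 at D0, D4 and D8, and the Y-linked gene Ddx3y had 15.8, 6.49 and 9.67 RPM. The mean of 5 Y-linked genes was 1.29, 0.484 and 0.347 times the autosomal mean. The labels do not say whether the stages share a cell isolate, and the part of that in the results was not tested. With autosomal genes alone, which leaves out the X-linked member Kif4, H3K4me3 was below the median change of all genes at D8 against D0 in 37 of 37 members.

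H3K4me3 of the whole set did not keep up with the rest of the genome from D0 to D8. In deposited RPM 37 of the 38 members were higher at D8 than at D0, all but Ccnb2, but each of the 38 gained less than the median gene, so that on the quantile-normalized scale all 38 had a log2 change below the median of all genes, where 50% of genes lie by definition. The members' D0 values ran from 5.78 to 29.9 RPM with a median of 15.8, their D4 values from 6.49 to 45.1 with a median of 16.6, and their D8 values from 7.63 to 66.7 with a median of 25.5. The ranges of the 3 stages overlap. Ranked among all genes of a library, the members stood at a median percentile of 82.8 in the D0 library, 69.5 in that of D4 and 61.1 in that of D8, and the rank at D8 was below that at D0 in 38 of 38. Above the 75th percentile stood 27 members at D0, 10 at D4 and 4 at D8, these last being Kif11, Aurka, Kif20a and Cdca8. Together they held 0.315%, 0.238% and 0.199% of the signal in genes.

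**Figure D2:**
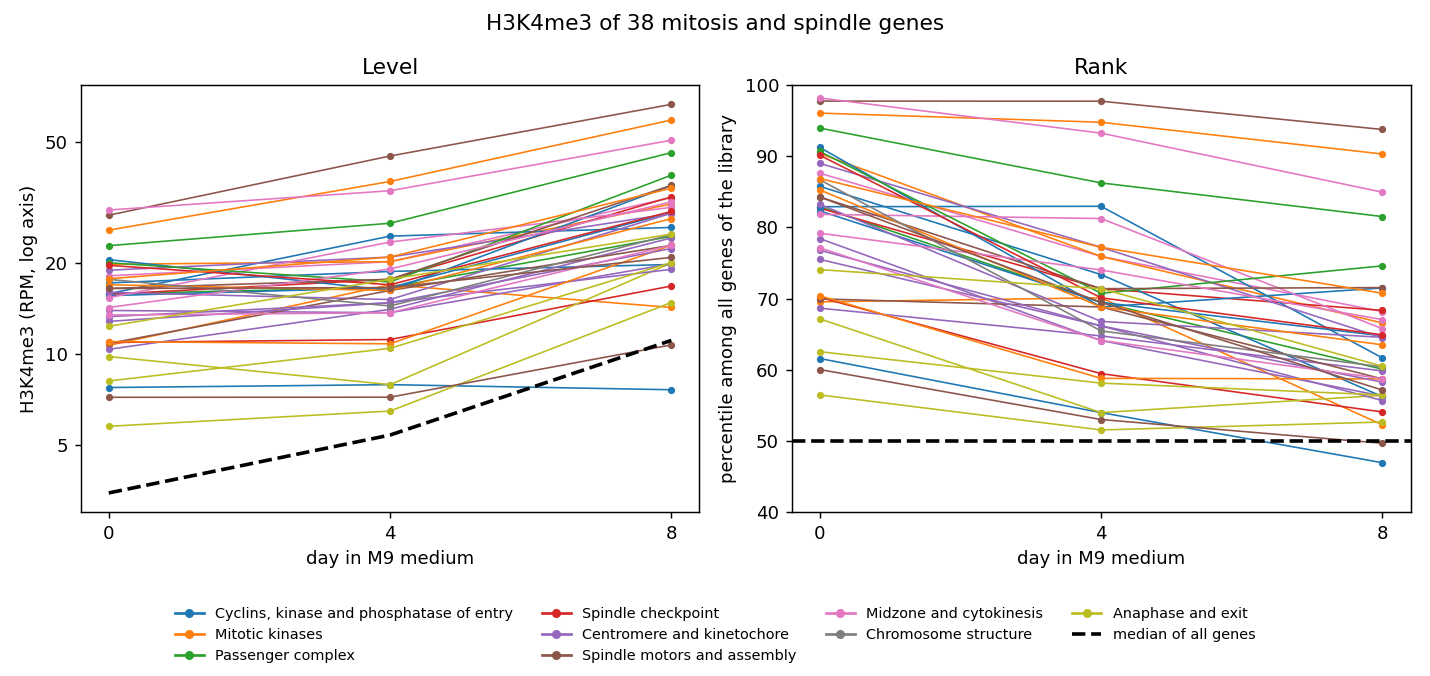
H3K4me3 of each of the 38 members at day 0, 4 and 8, in deposited RPM on a log axis (left) and as the percentile among all genes of the same library (right), coloured by role, with the median of all genes dashed. Levels rise in nearly every member while the dashed line rises from 3.48 to 11.1 RPM, and every member ends at a lower percentile than it began.

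Between D0 and D8 the median log2 change was −0.74 over the 38 members and 0.02 over the 13401 genes compared. Of the members, 7 were at least 2-fold lower, against 1.67% of all genes, and none was 2-fold higher, against 5.88%. Between D0 and D4 the members' median was −0.46, against 0.01 over all genes, 37 of 38 lay below that median, and none passed 2-fold (backgrounds of 1.21% lower and 3.76% higher). Between D4 and D8 the median was −0.30, 34 of 38 lay below the median of all genes, and Bub1 alone was 2-fold lower, against 0.432% of all genes. These 3 comparisons share libraries and are not independent. The members began at high levels; among the 10113 compared genes whose D0 value lay within the members' range, the median change from D0 to D8 was −0.03, and 38 of 38 members were below it. In deposited RPM the median log2 change from D0 to D8 was 0.79 over the members and 1.51 over all genes, with 8 members 2-fold higher beside 90.6% of all genes.

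Counting error was read from the ratio of deposited values, with exact 95% intervals that cover the number of reads alone. The median ratio of D8 to D0 over all genes was 3.13. Of the 35 members with whole read numbers in both libraries, 34 had an interval that ended below this ratio, the exception being Espl1, and 33 had an interval above 1, the exceptions being Ccnb2 and Cdc25c. For D4 against D0, where the D4 library is shallow, 22 of 37 intervals ended below the median ratio of 1.58, and for D8 against D4 11 of 35 ended below 1.99. For the remaining members over these shorter steps a difference from the median gene was not detectable at this depth. The share of all genes with such intervals was not computed for any mark. These interval counts therefore describe counting error in the members and do not set them apart from other genes.

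**Figure D3:**
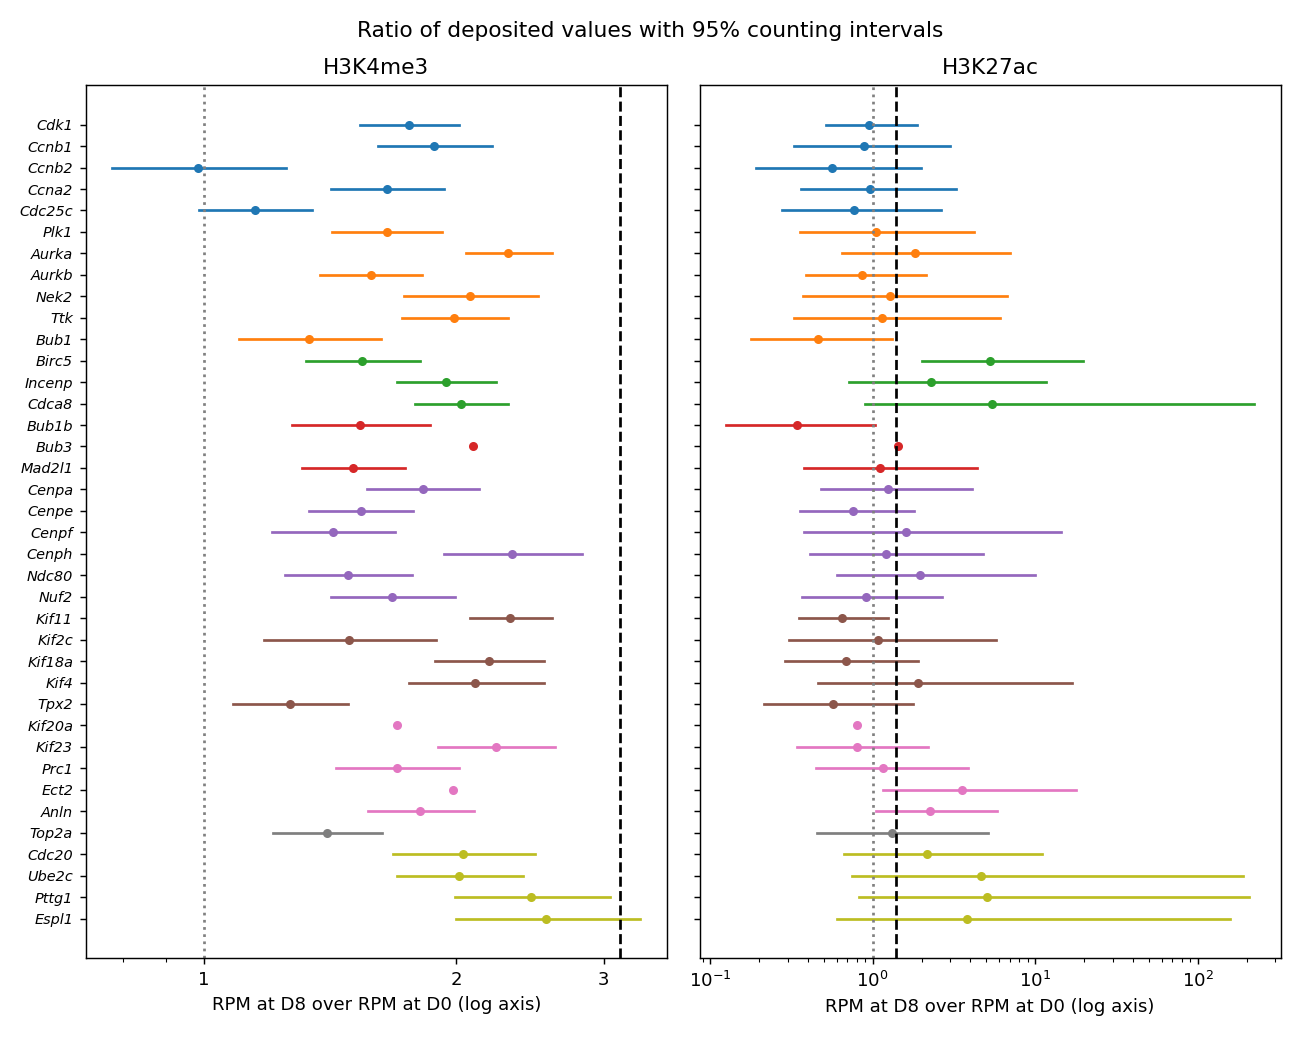
Ratio of the deposited RPM at D8 to that at D0 for each member (points) with exact 95% counting intervals (bars), on log axes, for H3K4me3 and H3K27ac. The dotted line is a ratio of 1 and the dashed line the median ratio of all genes, 3.13 and 1.38; for H3K4me3 all points lie left of the dashed line, while for H3K27ac the bars are wide and mostly cross it.

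The genes that start mitosis included the member with the lowest relative change. Ccnb2, the cyclin B2 partner of Cdk1, stood at 7.76, 7.93 and 7.63 RPM at D0, D4 and D8. Its level was nearly flat while the median gene gained, and its log2 change of −1.42 went with a ratio of 0.983 (interval 0.777 to 1.25). Cdc25c, the phosphatase that activates Cdk1, stood at 17.2, 18.8 and 19.8 RPM, a log2 change of −1.35 and a ratio of 1.15 (0.986 to 1.35). Ccna2, cyclin A2, had 15.8, 24.5 and 26.2 RPM. It kept pace with all genes to D4, with a log2 change of 0.00, and had −0.87 from D4 to D8. Cdk1 itself had 20.5, 16.2 and 36.0 RPM, and its log2 change from D0 to D8 was −0.77. Its value was lowest at D4, but the ratio of D4 to D0 was 0.791 (0.563 to 1.09). A fall to D4 was therefore not detectable at this depth. Ccnb1, cyclin B1, had −0.69 at 15.6, 16.6 and 29.4 RPM.

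Among the mitotic kinases the changes spread from −1.15 to −0.33. Bub1, a kinase of the spindle checkpoint, stood at 10.7, 16.9 and 14.3 RPM in the 3 stages, highest at D4. As for Ccna2, its difference lay between D4 and D8, with log2 changes of 0.02 from D0 to D4, −1.18 from D4 to D8 and −1.15 from D0 to D8, and the D4 value rests on 47 reads. Aurkb, the kinase of the chromosomal passenger complex, had −0.92 and Plk1, which acts at centrosomes, kinetochores and the midzone, had −0.87. Ttk, the kinase that starts checkpoint signalling, and Nek2, a centrosome kinase, had −0.60 and −0.59. Aurka, the spindle pole kinase, was among the least changed at 25.7, 37.1 and 59.2 RPM, with a log2 change of −0.33 and a ratio of 2.31 (2.05 to 2.60). The start of Cstf1, on the opposite strand, lies 433 bases from that of Aurka, so the reads of the 2 promoters may not be separable; the same holds for Nuf2, Kif4, Cdca8 and Anln, with starts of Gm34624, Pdzd11, 9930104L06Rik and 9530077C05Rik 113 to 328 bases away.

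The other subunits of the passenger complex, which corrects faulty attachments, had −0.96 for Birc5 (survivin), −0.62 for Incenp, its scaffold, and −0.54 for Cdca8 (borealin). Of the checkpoint proteins, Mad2l1, which binds and holds Cdc20, went from 19.6 to 16.9 and 29.6 RPM and lay just outside the 2-fold line at −0.998. Bub1b, the BubR1 protein of the mitotic checkpoint complex, had 10.9, 11.2 and 16.8 RPM and −0.99, and Bub3, the partner of Bub1 and Bub1b, had −0.54. Of the members past 2-fold, Ndc80 lay nearest to the line at −1.02, and Kif2c was just outside it at −0.99.

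Of the 6 genes of centromere and kinetochore, 2 were at least 2-fold lower. Cenpf, a large protein of the outer kinetochore, stood at 13.9, 13.7 and 19.9 RPM, with −1.07 and a ratio of 1.43 (1.21 to 1.69). Ndc80, which binds microtubules at the kinetochore, had 12.8, 14.8 and 19.05 RPM and a ratio of 1.48 (1.25 to 1.77). Both ratios lie well under the 3.13 of the median gene. Nuf2, the partner of Ndc80, had −0.86, Cenpe, a kinetochore motor, had −0.96, and Cenpa, the histone H3 variant that marks the centromere, had −0.72. Cenph, of the inner kinetochore, was among the least changed, with 10.4, 14.1 and 24.2 RPM and −0.44.

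The spindle genes spread from −1.23 to the smallest difference of the set. Tpx2, which activates Aurka and seeds microtubules, stood at 16.5, 16.6 and 20.9 RPM, with −1.23 and a ratio of 1.27 (1.08 to 1.48). Kif11, the motor that pushes spindle poles apart, had 28.7, 45.1 and 66.7 RPM, a log2 change of −0.31 and a ratio of 2.32 (2.08 to 2.60). Their intervals do not overlap. Kif2c, a microtubule depolymerase, was among the 3 lowest members at D0 and had 7.21, 7.21 and 10.7 RPM. Kif18a, which limits chromosome movements at metaphase, had −0.47, and Kif4, a chromosome-bound motor encoded on the X chromosome, had −0.58.

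The 5 genes of the midzone and of cytokinesis lay between −0.84 and −0.46. Kif20a, a motor of the midzone, had the highest value of the set at D0 and stood at 29.9, 34.6 and 50.8 RPM, with −0.75. Prc1, which bundles midzone microtubules, had −0.84, Anln, which organises the contractile ring, −0.73, Ect2, which activates RhoA at the cell equator, −0.62, and Kif23, of the centralspindlin complex, −0.46. Top2a, which untangles sister chromatids, stood at 17.7, 14.4 and 24.8 RPM and was 2-fold lower at −1.10, with a ratio of 1.40 (1.21 to 1.63). Its D4 value was the lowest of the 3 libraries, but the ratio of D4 to D0 was 0.817 (0.568 to 1.15). A fall to D4 was therefore not detectable at this depth.

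The genes of anaphase and mitotic exit had the smallest differences as a group, with a median of −0.51 over 4 and none past 2-fold. Espl1 (separase), which cleaves cohesin, was the lowest member at D0 and stood at 5.78, 6.49 and 14.8 RPM, with −0.37. Pttg1 (securin), its inhibitor, had 8.16, 10.5 and 20.1 RPM and −0.41. Cdc20, an activator of the anaphase-promoting complex, and Ube2c, its ubiquitin-conjugating enzyme, had −0.64 and −0.62. Differences between the role groups have no test, since the groups hold 1 to 6 genes each from the same libraries.

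**Figure D4:**
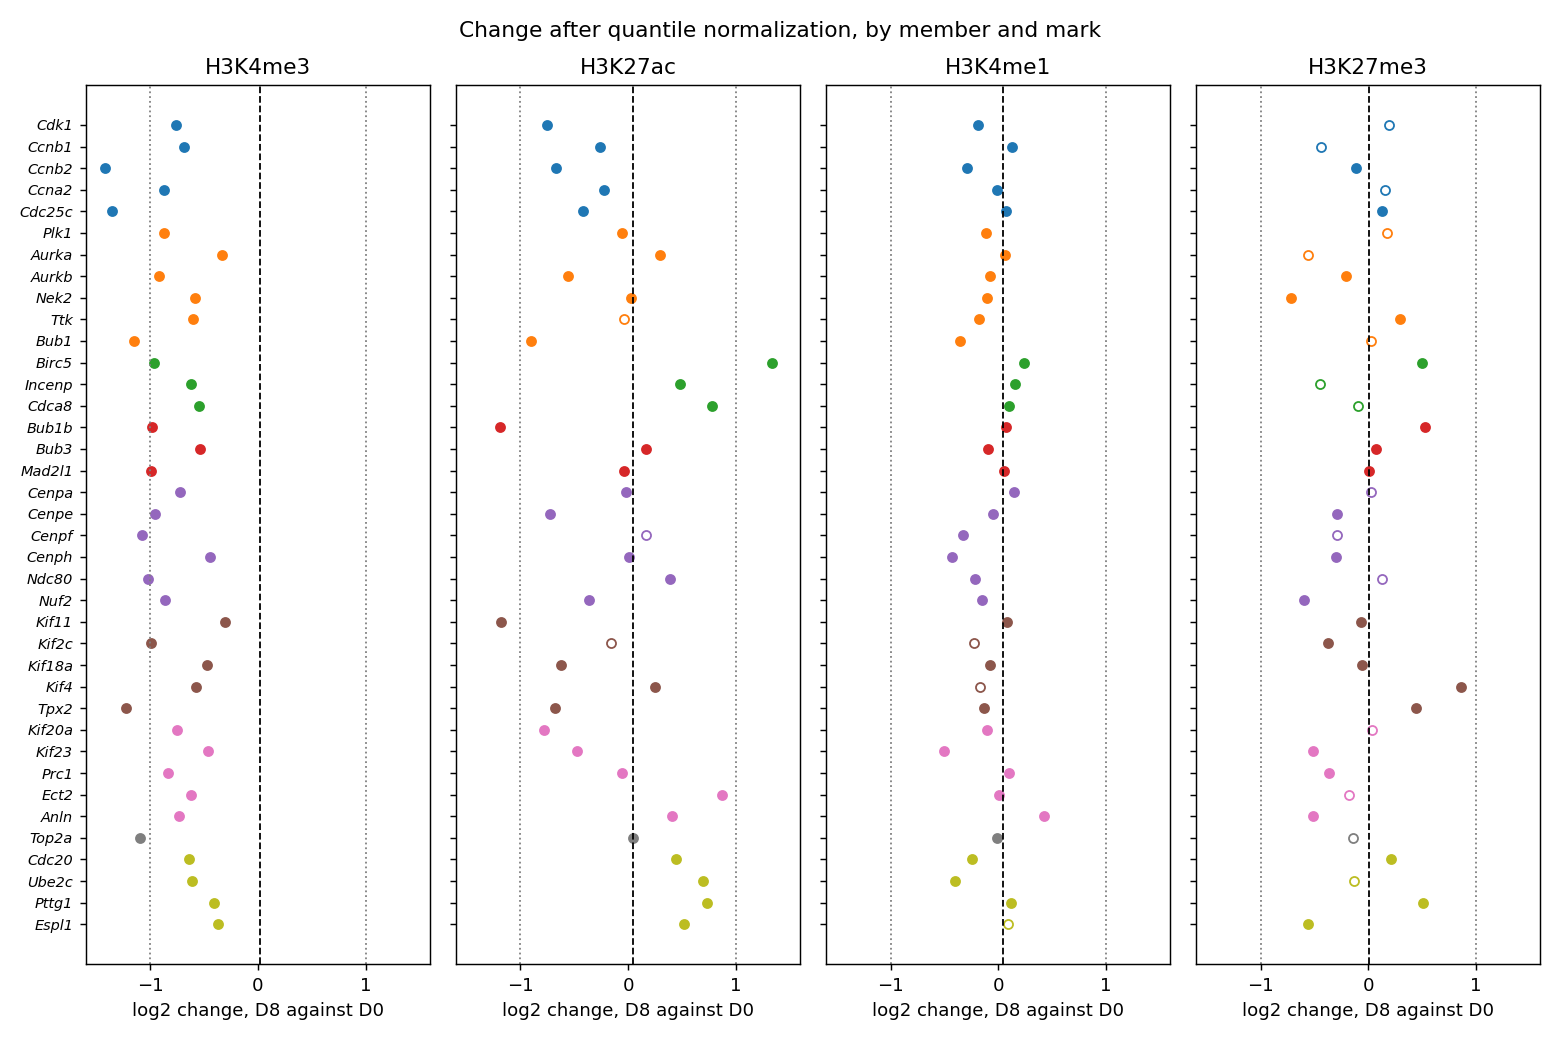
The log2 change from D0 to D8 after quantile normalization for every member and each of the 4 marks, coloured by role; open points are members under the filter on low values, the dashed line is the median of all genes compared and dotted lines mark 2-fold. All 38 points for H3K4me3 lie left of the dashed line, while those of the other marks lie on both sides.

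Members with a CHR or its variant in the window had a median H3K4me3 change of −0.72 (23 genes, 5 of them 2-fold lower), and the 9 members with a window that had neither had −0.69, with none 2-fold lower. The ranges overlapped, from −1.42 to −0.31 and from −0.998 to −0.41. Cdc25c (−1.35) and Tpx2 (−1.23), also 2-fold lower, have no window and are in neither group. Over all comparable genes with a window, the median was −0.06 in the 1527 with either form, of which 42 were 2-fold lower. It was 0.04 in the 8510 without, of which 88 were 2-fold lower, and −0.10 in the 639 with either form and a CCAAT box. Split by the CCAAT box alone, the members had the opposite order, with −0.63 in the 24 with a box and −0.91 in the 8 without. Ccnb2 and Kif11, shown above, both carry the CHR and the CCAAT box near the start and stood at opposite ends of the set.

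H3K27ac of the set lay close to that of all genes from D0 to D8 and below it from D4 to D8. Between D0 and D8 the 35 members compared had a median log2 change of −0.04, against 0.05 over 16729 genes, and 21 of 35 lay below that median. On this scale Bub1b (−1.19) and Kif11 (−1.18) were 2-fold lower and Birc5 (1.33) 2-fold higher, beside backgrounds of 6.26% and 6.93%, so that 3 of 35 is no larger a share than among all genes. The D0 library was shallow, with 1 to 15 reads per member, and 1 read there was worth 0.632 RPM. Of 33 members with whole reads, 3 had a ratio interval below the median ratio of 1.38 and 1, Birc5, above it. With a filter at the 75th percentile of the mark, 13 of the 21 members compared lay below the median of all genes, with medians of −0.36 over the members and 0.16 over all genes.

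Birc5 stood at 2.53, 5.49 and 13.4 RPM of H3K27ac, from 4, 93 and 105 reads, so each later library was above the one before. Its ratio of D8 to D0 was 5.28 (2.00 to 19.8), and that of D8 to D4, between deeper libraries, 2.43 (1.82 to 3.25) beside a median of 1.49 over all genes. Kif11 had 9.48, 4.90 and 6.10 RPM, from 15 reads at D0, and a ratio of 0.644 (0.355 to 1.24). Bub1b had 4.42, 2.42 and 1.53 RPM, from 7 reads at D0, and a ratio of 0.345 (0.125 to 1.03). Kif11 and Bub1b were highest at D0, and both intervals end below the median ratio of 1.38 but include 1. In deposited RPM, where 2.32% of all genes were 2-fold lower, neither passed, with log2 changes of −0.53 and −0.96.

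Next to these, Bub1 (4.42, 2.07 and 2.03 RPM), Kif20a (6.53, 3.90 and 5.26 RPM) and Cdk1 (8.21, 5.14 and 7.76 RPM) had the lowest H3K27ac changes, from −0.90 to −0.75. At the upper end Ect2 had 1.90, 4.61 and 6.74 RPM and 0.87. Cdca8 had 0.632, 1.65 and 3.43 RPM, with 0.78. Pttg1 had 0.632, 3.48 and 3.18 RPM (0.74) and Ube2c 0.632, 2.07 and 2.92 RPM (0.69), and for all 3 the D0 value is 1 read. Ect2, Cdca8, Pttg1 and Ube2c were below the filter of 2.18 RPM at D0 and entered through D8. Bub1 and Bub1b were below it at D8 and entered through D0. By role, the 3 passenger genes other than Aurkb and the 4 genes of anaphase and exit were the groups of more than 1 gene wholly above the median of all genes. This held on this scale, with medians of 0.78 and 0.60, and in deposited RPM. The D0 values of these genes rest on 1 to 4 reads each. Every ratio interval among them but that of Birc5 includes the median ratio of 1.38, so those differences were not detectable at this depth. All of these genes but Birc5 were also below the filter of 2.18 RPM at D0 and entered through D8. A rise in deposited RPM was thus a condition of their entry, and their place above the median is no separate result. Aurkb, the kinase of the passenger complex, was placed with the mitotic kinases and had a ratio of 0.855 (0.389 to 2.14), below the median ratio.

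Between D0 and D4, 16 of 33 members compared for H3K27ac lay below the median of all genes, as 49.5% of all genes did. On this scale Kif23 was 2-fold lower (−1.002) and Pttg1 (1.19), Birc5 (1.099), Ect2 (1.07) and Incenp (1.05) 2-fold higher, beside 6.83% and 7.53% of all genes. In deposited RPM only Pttg1 of these 5 passed 2-fold, beside 3.85% lower and 5.73% higher among all genes. Pttg1, Ect2 and Incenp were below the filter at D0 and entered through D4. Between D4 and D8, 24 of 36 lay below the median, against 49.9% of all genes, and none passed 2-fold, beside 0.479% lower and 0.537% higher. The members' median was −0.20, against 0.02 over all genes, and in deposited RPM 28 of 36 lay below the median. Between these deeper libraries 9 of 34 ratio intervals ended below the median ratio of 1.49 and 1, that of Birc5, lay above it, beside the 11 of 35 below for H3K4me3 over the same step. Across the 38 members the H3K27ac change from D0 to D8 had a Spearman rho of 0.34 with that of H3K4me3, a description over genes that share libraries.

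H3K4me1 differed little. None of the members passed 2-fold from D0 to D4 (backgrounds of 0.0801% lower and 0.109% higher), from D0 to D8 (0.16% and 0.1%) or from D4 to D8 (0% and 0%). Below the median of all genes lay 24 of 36, 22 of 35 and 23 of 36 members compared. Their range in RPM was 1.87 to 5.05 at D0, 2.44 to 6.90 at D4 and 2.02 to 11.9 at D8. Anln was the highest at D8, going from 4.32 to 6.37 and 11.9 RPM, with a log2 change of 0.43 and a ratio of 2.75 (2.20 to 3.44) beside a median of 1.63. Birc5 followed with 2.77, 4.85 and 5.78 RPM and 0.24, then Incenp with 3.22, 3.85 and 6.38 RPM, Cenpa with 2.20, 3.14 and 3.69 RPM and Ccnb1 with 2.89, 3.79 and 5.44 RPM. At the lower end Kif23 was flat at 3.79, 3.61 and 3.80 RPM, a change of −0.50. Cenph (3.34, 3.14 and 3.43 RPM), Ube2c (2.61, 3.14 and 2.25 RPM), Bub1 (3.63, 4.49 and 4.30 RPM) and Cenpf (4.07, 4.91 and 5.21 RPM) lay between −0.43 and −0.33. From D0 to D8 the median over the members was −0.08, against 0.04 over all genes, and the sign turned in deposited RPM, where both medians were 0.48 and 17 of 35 members lay below.

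The median H3K27me3 of the members lay below that of all genes at every stage. It was 1.47, 1.57 and 1.53 RPM, from 2 to 17 reads a gene at D0, against 1.76, 1.74 and 1.83 RPM over all genes. The members' median percentile was 40.4, 40.02 and 32.6, and the highest member stood at 85.7, 76.9 and 74.5. Of the 23 members compared at D8 against D0, 13 lay below the median of all genes, as did 49.8% of genes, and none passed 2-fold, beside 1.76% lower and 1.82% higher. Between D0 and D4, 13 of 23 lay below (49.9% of genes) and none passed 2-fold, beside 1.1% and 1.35%, and between D4 and D8 10 of 23 (49.9%) with none past 2-fold, beside 0.0834% and 0.135%. Kif4 had the largest increase, at 0.391, 1.57 and 2.36 RPM from 2, 29 and 27 reads, with a log2 change of 0.86. Its ratio was 6.02 (1.51 to 52.2). Kif4 was below the filter of 1.76 RPM at D0 and entered through D8, so its rise was a condition of its entry. Kif4 is the 1 member on the X chromosome, where the mean H3K27me3 of genes went from 0.495 to 0.872 and 0.880 times the autosomal mean. The part of the X chromosome in this difference was not tested.

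The next highest were Bub1b (0.783, 1.79 and 2.09 RPM), Pttg1 (0.978, 1.57 and 2.22 RPM), Birc5 (0.587, 1.30 and 1.83 RPM) and Tpx2 (0.978, 1.63 and 2.09 RPM), with changes from 0.52 to 0.44. Their D0 values rest on 3 to 5 reads and were below the filter of 1.76 RPM, so these genes also entered through D8. At the lower end Nek2 had 3.33, 1.79 and 1.48 RPM, a change of −0.72 and a ratio of 0.446 (0.214 to 0.929). Nuf2 (2.35, 1.52 and 1.22 RPM), Espl1 (2.54, 1.57 and 1.40 RPM), Kif23 (3.13, 1.36 and 1.74 RPM) and Anln (1.76, 0.597 and 1.05 RPM) lay between −0.60 and −0.51. Nek2 and these genes were below the filter at D8 and entered through D0.

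Further genes of the cell cycle were set beside the members for H3K4me3 at D8 against D0. Their lists were also chosen with earlier results of these data known. Of 48 other mitotic genes compared, out of 49 found in the table, 47 lay below the median of all genes, with a median of −0.45 and 2 past 2-fold. These were Kif18b, a spindle motor, at 17.1, 13.0 and 22.7 RPM (−1.16), and Melk, a mitotic kinase, at 13.8, 13.7 and 20.0 RPM (−1.05). The highest were Wee1, the kinase that inhibits Cdk1, at 22.1, 33.5 and 75.4 RPM (0.21), and Cenpn, a centromere protein, at 15.8, 24.9 and 45.2 RPM (−0.08). Of 36 DNA replication genes, 29 lay below, with a median of −0.39. Cdc6, which loads the replicative helicase, had 6.81, 6.85 and 8.68 RPM (−1.14), and Mcm10, a factor of the replication fork, 8.67, 7.75 and 12.9 RPM (−1.01), while Mcm7, a helicase subunit, had 0.22 and Chaf1b, a histone chaperone subunit, 0.26. In deposited RPM the medians were 1.06 over the other mitotic genes and 1.12 over the replication genes, so that both were positive on that scale and below the 1.51 of all genes.

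The regulators of such genes had no shared direction, with a median of −0.02 over 23 and 12 below the median of all genes. Mybl2, an activator at CHR promoters, was the lowest at 6.73, 7.93 and 11.96 RPM (−0.79), followed by Lin37, a subunit of DREAM, at 11.96, 18.4 and 22.6 RPM (−0.71). Foxm1, the other activator named above, had 19.6, 23.8 and 46.3 RPM (−0.34). Rb1, the retinoblastoma repressor, had 9.50, 20.2 and 47.1 RPM (0.61) and E2f3 had 19.2, 40.6 and 87.4 RPM (0.64).

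Over 11 G1 cyclins and kinases the median was 0.13 and 5 lay below the median of all genes, with Cdk2 (−0.46) and Mnat1 (−0.40) the lowest, Ccne1 at 0.78, and Ccnd1, cyclin D1, 2-fold higher at 13.2, 43.6 and 96.6 RPM (1.27). Over 7 inhibitors of cyclin-dependent kinases it was 0.80, 3 lay below the median of all genes, and 2 were 2-fold higher. Cdkn1a (p21) had 11.2, 41.8 and 90.3 RPM (1.38) and Cdkn2a 9.38, 31.7 and 62.7 RPM (1.04), while Cdkn2c had −0.33 and Cdkn2d −0.27. Of 15 housekeeping genes, with a median of 0.01 and 8 below that of all genes, Rplp0 (−0.48) and Gusb (−0.47) were lowest and Eef1a1 (0.35) and Ywhaz (0.48) highest; Actb had 0.01 and Gapdh 0.33. Fibroblast markers were also low, with a median of −0.48 over 10 and 9 below the median of all genes, which is close to the median of the other mitotic genes. Pdgfrb (−1.11) and Col3a1 (−1.002) were the lowest of them, and Twist1 (−0.19) and Pdgfra (0.17) the highest.

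**Figure D5:**
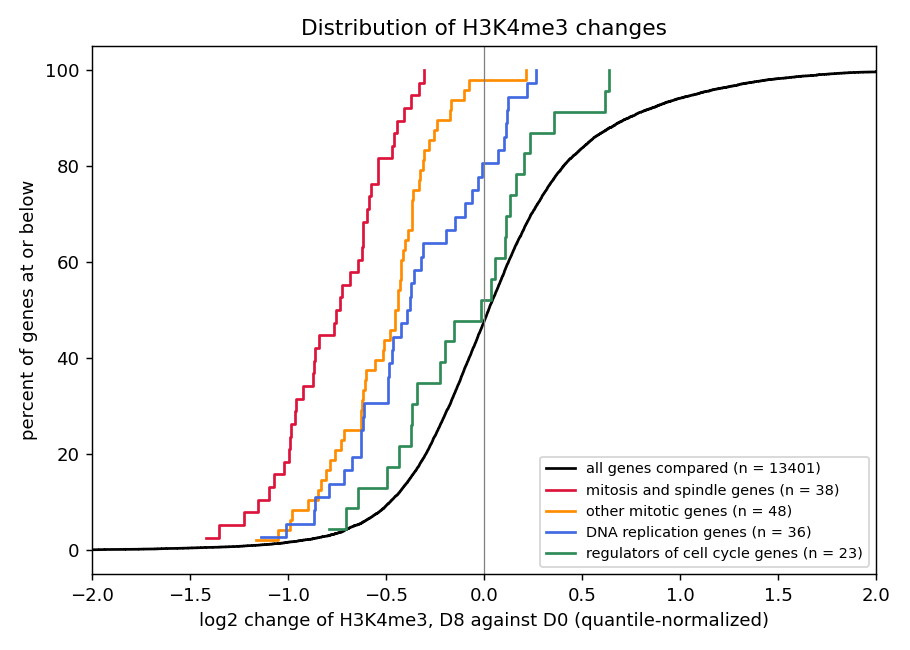
Cumulative distribution of the log2 change of H3K4me3 from D0 to D8, quantile-normalized, for all genes compared, the members and 3 further lists; the y axis is the percent of genes at or below a value. The curve of the 38 members lies to the left, reaching 100 percent at −0.31, that of the 48 other mitotic genes follows it, and that of the 23 regulators lies near the curve of the 13401 genes.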

How the data were processed

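The unit of the deposited values, RPM per gene, was inferred from the values themselves, of which 93.5% to 95.2% in each library were whole multiples, within 0.02, of a fixed step. Of 24453 rows, 27 with symbols turned into dates and 205 at 0 in every column used were dropped. Of 20 value columns, 8 match no sample label and were not used. Per the submitters' processing notes, the build was mm10 and the tools were bedtools, SAMtools 0.1.19, Bowtie 1.1.0 and CASAVA 1.8.4. The sources used here give neither the region counted for a gene nor any subtraction of the input. Fragments of 200 to 400 bp were amplified for 13 cycles and single reads of 50 nt were taken, per the labels' protocols.

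The members and all gene lists were chosen with earlier results of these data known. For each mark the 3 libraries were quantile-normalized over 24221 genes, and log2 changes were taken with a pseudocount at the 25th percentile of positive values (1.44, 1.53, 1.63 and 1.30 RPM for H3K4me3, H3K27ac, H3K4me1 and H3K27me3). Genes were compared when the larger deposited value was at least the mark's median, 5.41, 2.18, 2.49 and 1.76 RPM in that order. Ratio intervals are exact 95% binomial intervals of the 2 read numbers and cover counting error only; PCR copies are not separate molecules. For 5 members (Bub3, Kif20a, Kif2c, Ect2 and Pttg1) some values were a fraction of a read and have no interval. Scripts were tested on simulated data. Members given library by library are the 5 with the largest and the 5 with the smallest change from D0 to D8 for each mark, those past 2-fold, and the 3 highest and 3 lowest at D0 for H3K4me3; Ccna2, Cdk1, Ccnb1, Mad2l1 and Bub1b are also given so for H3K4me3 and were chosen after their values were seen. From each further list the 2 lowest and 2 highest are named, as are Xist, Ddx3y, Actb, Gapdh, Col1a1, Cdkn1a, Foxm1, Mybl2 and Sox2 whatever their values. Promoters and gene positions come from RefSeq on GRCm38.p6. Python 3.11.15, pandas 2.3.3, numpy 2.4.6, scipy 1.17.1 and matplotlib 3.10.9 were used.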

Additional observations from a re-analysis of the deposited data

How the results depend on the processing

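The counts of members below the median change of all genes and of members past 2-fold stayed within 1.5 times the main count in 109 recomputed values and did not in 18. For H3K4me3 from D0 to D8 every compared member lay below that median under each of the 10 settings, 27 to 38 members entering. The number at least 2-fold lower did depend on the setting: 7 as given, 0 in deposited RPM, 12 with the pseudocount divided by 4, 2 with 4 times the pseudocount and 2 with a filter at the 75th percentile of the mark. In deposited RPM the called members turned to log2 changes of 0.37 for Bub1, 0.47 for Cenpf, 0.52 for Ndc80, 0.32 for Tpx2, 0.46 for Top2a and 0.19 for Cdc25c, because the median gene stood at 1.51 there. The single 2-fold lower call of D4 to D8, Bub1, went to 0 in deposited RPM, with 4 times the pseudocount and with the stricter filter.

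The remaining moves came with the number of members that entered. With the stricter filter, 8 of 8 members compared lay below the median for H3K4me3 from D0 to D4. For H3K27ac there were 8 of 17, 13 of 21 and 15 of 19 (D0 to D4, D0 to D8, D4 to D8). For H3K4me1 from D0 to D4 there were 15 of 23. For H3K27me3 there were 5 of 5 from D0 to D4 and 5 of 5 from D0 to D8, and no member entered from D4 to D8. With no filter H3K27me3 gave 21 of 38 (D0 to D8) and 18 of 38 (D4 to D8). Without the 5 members near another gene's start and the 6 with no promoter entry, H3K27ac from D4 to D8 gave 14 of 25. Reading members against genes at their own level was chosen after seeing the data. No paired analysis was possible because each mark has 1 library per stage; for the same reason no library could be left out. Depth limits H3K27ac and H3K27me3 at D0 and H3K4me3 at D4 most.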
